A study of Homo sapiens with 6 samples.

Results

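The genes described here are the Notch receptors NOTCH1, NOTCH2 and NOTCH3, the ligands JAG1, JAG2 and DLL1, and the target genes HES1, HES4, HEY1 and NRARP. They were chosen by symbol as 10 core genes of the pathway, and 9 of the 10 had values among the 16305 genes measured; DLL1 was not analysed here. RNA-seq was performed on Huh7-R cells, labelled Huh7SR by the submitters, a pool of sorafenib-resistant cells raised from the human hepatocellular carcinoma line Huh7. The 3 DMSO samples and the 3 fostamatinib samples were all of this resistant pool, and no parental cells were among them, so both groups carried the resistance. Fostamatinib is a prodrug of an inhibitor of spleen tyrosine kinase and was given at 2 µM for 24 h; the labels write 2 µM and 24 h for the DMSO vehicle as well. The comparison asked how the drug altered gene expression in resistant cells.

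Notch receptors are single-pass membrane proteins that are activated by Jagged or Delta ligands on a neighbouring cell. Ligand pulling exposes the receptor to ADAM proteases and then to gamma-secretase, which frees the intracellular domain. This domain enters the nucleus, binds the DNA-binding protein RBPJ together with a Mastermind protein, and turns on genes such as the HES and HEY repressors. In the liver the pathway is best known for steering progenitor cells toward bile duct fate, with JAG1 and NOTCH2 as the main pair.

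After fostamatinib, 3 of the 9 measured genes fell and 0 rose. The ligand JAG1 fell by 36.4%, the target HES4 fell by 25.1% and the receptor NOTCH2 fell by 10.3%. HES1, the best known target of the pathway, changed by -2.68%, with a 95% interval of the log2 fold change from -0.21 to 0.13, and did not pass the test. None of the 9 changed by more than 2-fold. The calls are from limma, a linear model that shares the estimate of the spread across genes, at a Benjamini-Hochberg adjusted p under 0.05 over all 16305 genes.

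These counts stand beside a broad response of the whole transcriptome. Of all genes, 47.8% were called changed, 23.3% higher and 24.5% lower, and the 3 lower genes of 9 are not far from that background. Among all genes 7.13% were called and moved more than 2-fold. The groups did not overlap for 4 of the 9 Notch genes (NOTCH1, NOTCH2, JAG1 and HES4) and for 54.1% of all genes. The median log2 fold change was -0.16 over the 9 genes, which ranged from -0.65 to 0.43, and 0.0015 over all genes. With 0 of the 9 called higher, the count at an unadjusted p under 0.05 was also 0 higher and 3 lower, and limma-voom on read counts gave 0 higher and 3 lower.

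Each library held 13303451 to 15272737 reads on the listed genes. Values are given as log2 CPM, the log2 of counts per 1000000 reads after TMM scaling with 0.5 added to each count. The labels describe treatment in triplicate but the sources do not say that the samples were separate cultures, so p-values may measure only the spread between wells. All 8 hepatocyte markers examined were measured, with a summed level of 4135 to 4407 CPM in DMSO samples and 5320 to 5663 CPM in fostamatinib samples, and all 8 rose. Of the bile duct markers 7 of 7 were measured, at 306 to 323 CPM against 351 to 356 CPM, with 3 higher and 2 lower. Most of this sum was KRT19, with means of 3346 and 3738 reads, so the sum mainly follows that gene. The 2 lower genes were SOX9 and SPP1. Of the immune markers 2 of 6 were measured, LYZ and CD14, at a sum of 9.76 to 11.1 CPM against 9.60 to 11.6 CPM, with 0 called. Of the endothelial markers 2 of 6 were measured, at 7.62 to 8.75 CPM against 11.6 to 13.0 CPM, and both rose. Of the stellate and fibroblast markers 4 of 6 were measured, at 296 to 305 CPM against 307 to 310 CPM, with 2 higher and 1 lower. All samples were of the resistant pool of the Huh7 line, so the lists describe expression within that line and do not count tissue cell types. The part of these marker shifts in the Notch values was not tested. In bulk RNA a changed share of cells within the pool and a changed amount of RNA per cell cannot be told apart.

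The level per length shows which Notch genes the cells carried. It is given as reads per kilobase of the merged exons of a gene and per 1000000 reads. In DMSO samples NOTCH2 stood highest at 21.3 ± 0.24 (SD, n = 3), and HES4 (13.2 ± 2.36), JAG1 (11.9 ± 0.57) and HES1 (11.4 ± 0.74) followed within their spread of each other. NOTCH1 came next at 5.63 ± 0.24, apart from its neighbours. NRARP stood at 0.91 ± 0.16, and NOTCH3, HEY1 and JAG2 lay lowest at 0.18, 0.17 and 0.084, again without separation beyond their spread. With the longest transcript as the length, JAG1 (18.7) stood above HES1 (14.9) and HES4 (14.2), so the order among these 3 depends on the length used.

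**Figure D1:**
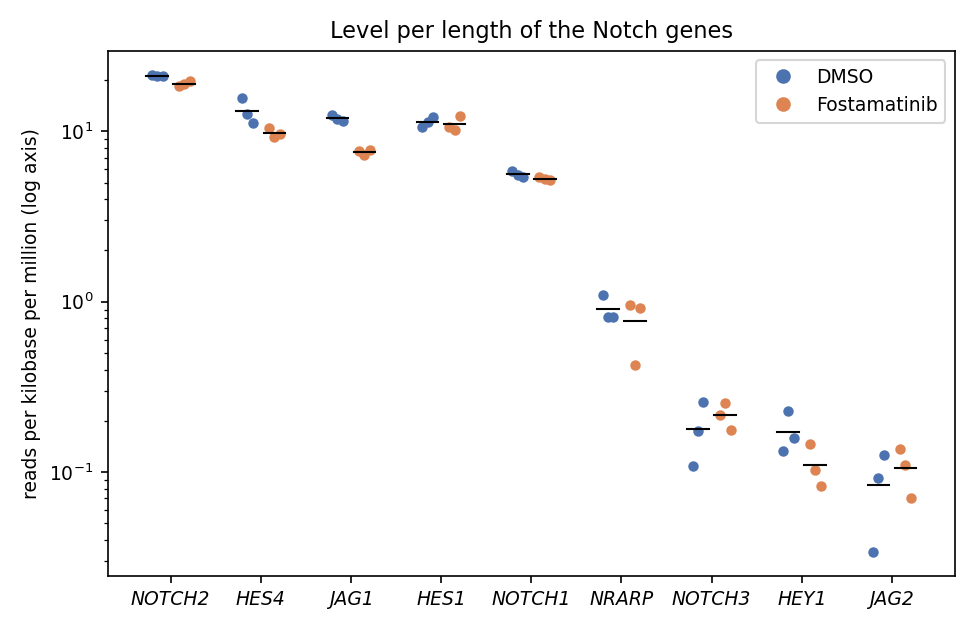
Reads per kilobase of merged exons per 1000000 reads on a log axis for the 9 Notch genes, ordered by their DMSO mean; each point is 1 of 3 DMSO or 3 fostamatinib samples and each short line a group mean. NOTCH2 is highest in both groups (21.3 and 19.1), and 4 genes (NRARP, NOTCH3, HEY1 and JAG2) have means under 1 in both groups.

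The receptor pool was mostly NOTCH2. On the level per length, NOTCH2 made up 78.2% to 78.8% of the sum of the 3 receptors in DMSO samples and 76.7% to 78.8% in fostamatinib samples. The 2 ranges overlap.

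NOTCH2 (ENSG00000134250; chr1:120454176-120643366 on the minus strand of GRCh37) was measured with 4259 to 5400 reads per sample. On the log2 CPM scale the DMSO samples read 8.50, 8.47 and 8.47, and those given fostamatinib 8.27, 8.31 and 8.38. All 3 fostamatinib samples lay below all 3 DMSO samples, by a small margin. Its log2 fold change was -0.16 (SE 0.037, 95% interval -0.23 to -0.081, limma adjusted p = 0.000679). This size is ordinary in these data, since 33.7% of all genes had a lower log2 fold change. Without the mean-variance trend the limma adjusted p of NOTCH2 was 0.0489, only just under the 0.05 limit. NOTCH2NL, a near-identical copy of part of NOTCH2, had 34 to 60 reads per sample and a log2 fold change of 0.12 (limma adjusted p = 0.656), and reads from the shared part cannot be assigned with certainty.

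NOTCH1 (ENSG00000148400; chr9:139388885-139440500, minus strand) had 858 to 1068 reads per sample. Levels were 6.21, 6.13 and 6.09 log2 CPM with DMSO and 6.08, 6.04 and 6.02 with fostamatinib. The groups did not overlap, but the lowest DMSO sample and the highest fostamatinib sample were nearly level. Its log2 fold change of -0.096 (SE 0.053, 95% interval -0.20 to 0.011) did not pass the test (limma adjusted p = 0.136).

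NOTCH3 (ENSG00000074181; chr19:15269849-15311806, minus strand) was a low gene, with 14, 25 and 36 reads under DMSO and 28, 34 and 22 under fostamatinib. On the log2 CPM scale these were 0.07, 0.74 and 1.30 against 1.05, 1.28 and 0.76. The fostamatinib samples all lay inside the range of the DMSO samples. A log2 fold change of 0.33 had a 95% interval from -0.24 to 0.89 (limma adjusted p = 0.352), so neither a fall nor a rise was detectable at this depth. It was 0.011 without DMSO replicate 1 and 0.62 without DMSO replicate 3.

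Among the ligands, JAG1 carried nearly the whole measured level. Its share of the summed level per length of JAG1, JAG2 and DLL4 was 97.0% to 97.8% in DMSO samples and 96.2% to 96.6% in fostamatinib samples. These ranges do not overlap, though they lie close together, and the difference was not tested.

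JAG1 (ENSG00000101384; chr20:10618332-10654647, minus strand) encodes the ligand whose loss causes Alagille syndrome, a disorder of the bile ducts. It had 1609, 1672 and 1581 reads under DMSO and 980, 962 and 964 under fostamatinib. Its log2 CPM was 6.87, 6.78 and 6.73 with DMSO, and 6.16, 6.08 and 6.19 with fostamatinib. The groups were far apart, with a gap wider than the whole range within either group. The log2 fold change was -0.65 (SE 0.050, 95% interval -0.76 to -0.55, limma adjusted p = 2.99e-13), the largest called change of the 9 genes. Of all genes, 8.84% had a lower log2 fold change. Very small p-values of this kind rest on the spread shared across genes, and without the mean-variance trend the limma adjusted p was 0.00124.

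JAG2 (ENSG00000184916; chr14:105607319-105635161, minus strand), the other Jagged ligand, was close to the floor of the data, with 3, 9 and 12 reads under DMSO and 12, 10 and 6 under fostamatinib. In log2 CPM these were -1.98, -0.68 and -0.25 against -0.14, -0.44 and -1.03. The groups overlapped widely. The log2 fold change of 0.43 had a 95% interval from -0.51 to 1.38 (limma adjusted p = 0.470), and without DMSO replicate 1 it was -0.069.

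**Figure D2:**
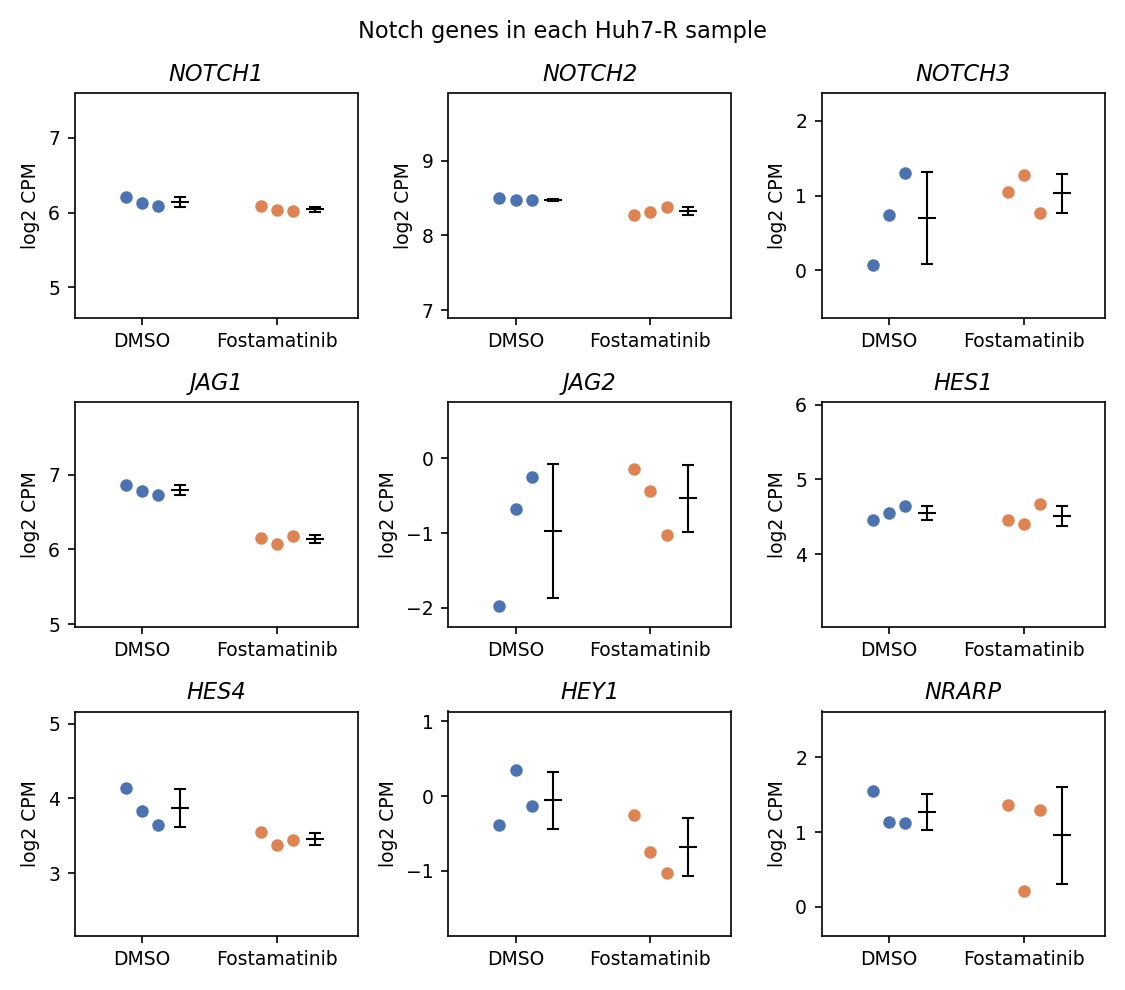
Log2 CPM of each of the 9 Notch genes in the 3 DMSO and the 3 fostamatinib samples, with group mean and SD in black; every panel spans the same height on the log2 scale. JAG1 separates the groups most clearly (6.73 to 6.87 against 6.08 to 6.19), and the low genes NOTCH3, JAG2, HEY1 and NRARP scatter within groups.

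The start of each gene was searched for letters that RBPJ is known to bind. The letters TGGGAA, the core of the sequence that RBPJ binds, were searched on both strands in the 250 bases before each RefSeq start; the longer GTGGGAA, which always contains TGGGAA, was searched as well. TGGGAA was found in 2 of the 8 Notch genes for which a window was at hand, HES1 and HES4, and so was GTGGGAA. The target NRARP held neither, and no window was at hand for the target HEY1. Of 35116 RefSeq promoter windows, 20.8% held TGGGAA and 5.43% held GTGGGAA, so 2 of 8 is not far from the background for TGGGAA. The same 2 of 8 is a larger share than the 5.43% for GTGGGAA, but it rests on 2 genes and was not tested. HES1 had TGGGAA 2 times, at -84 to -79 and at -70 to -65 from the start, and HES4 had it 1 time, at -76 to -71. The longest run of letters that the HES1 and HES4 windows shared was 12 bases, TGTGGGAAAGAA, and it spans a TGGGAA in each. A match is a description of the letters and not a measured binding site.

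The stretch from -150 to -51 is printed for HES1 and HES4, because they were the best covered of the measured targets and only HES4 passed the test, and for JAG1, the ligand that fell. Sequences are those of RefSeq promoters matched to GRCh37, 5′ to 3′ on the strand of the gene, with TGGGAA in capitals. HES1 is chr3:193853787-193853886 on the plus strand, HES4 is chr1:935528-935627 on the minus strand and JAG1 is chr20:10654698-10654797 on the minus strand. In GENCODE the HES1 and JAG1 stretches lie upstream of the gene, and the 3′ end of the HES4 stretch reaches into the gene, whose annotated start is at 935552. The TGGGAA marked in HES4 lies across that start, with all but its first base inside the annotated gene.
HES1: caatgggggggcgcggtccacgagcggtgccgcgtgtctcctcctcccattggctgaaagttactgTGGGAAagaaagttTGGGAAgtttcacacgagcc
HES4: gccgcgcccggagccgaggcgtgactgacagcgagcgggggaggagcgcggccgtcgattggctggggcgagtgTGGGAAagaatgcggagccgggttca
JAG1: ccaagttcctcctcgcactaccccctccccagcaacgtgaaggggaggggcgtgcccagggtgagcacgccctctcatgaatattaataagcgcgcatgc
The GC content of these stretches was 59% for HES1, 72% for HES4 and 61% for JAG1.

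HES1 (ENSG00000114315; chr3:193853937-193856521, plus strand) encodes a basic helix-loop-helix repressor that is the standard readout of Notch signalling, though other pathways also act on it. Reads were 301, 358 and 370 under DMSO and 302, 301 and 336 under fostamatinib. Its log2 CPM was 4.45, 4.55 and 4.64 with DMSO and 4.46, 4.40 and 4.67 with fostamatinib. The samples of both groups were interleaved. Its log2 fold change was -0.039 (SE 0.082, limma adjusted p = 0.722). The sign was not fixed, at 0.0066 without DMSO replicate 3 and 0.014 without fostamatinib replicate 2.

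HES4 (ENSG00000188290; chr1:934342-935552, minus strand) encodes a relative of HES1 that mice lack. It was covered by 243, 216 and 185 reads under DMSO and by 160, 148 and 143 under fostamatinib. In log2 CPM it stood at 4.14, 3.83 and 3.64 with DMSO and 3.54, 3.38 and 3.44 with fostamatinib. The groups did not overlap, but the DMSO samples were more spread than the others (SD 0.25 against 0.083). The log2 fold change was -0.42 (SE 0.11, 95% interval -0.64 to -0.19, limma adjusted p = 0.00199). DMSO replicate 1 was the highest sample, and without it the log2 fold change was -0.28 (limma adjusted p = 0.0532), which no longer passed. The call was also lost without the mean-variance trend (adjusted p = 0.0655).

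Whether HES1 and HES4 moved by different amounts was tested directly on their log2 ratio within each sample. The HES1 to HES4 ratio was 0.31, 0.73 and 0.998 under DMSO and 0.91, 1.02 and 1.23 under fostamatinib. The groups overlapped, and the difference of 0.38 was not significant in a two-sided exact permutation test (p = 0.2, adjusted p = 0.467 over 7 pairs). The smallest p that 3 samples against 3 can give is 0.1.

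HEY1 (ENSG00000164683; chr8:80674606-80680092, minus strand) encodes a related repressor best known from blood vessels. It had 10, 19 and 13 reads with DMSO and 11, 8 and 6 with fostamatinib, or -0.39, 0.35 and -0.14 against -0.26, -0.75 and -1.03 on the log2 CPM scale. The highest fostamatinib sample lay inside the DMSO range. A log2 fold change of -0.62 was close in size to that of JAG1, but its 95% interval ran from -1.40 to 0.17 and it did not pass (limma adjusted p = 0.193).

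NRARP (ENSG00000198435; chr9:140194083-140196723, minus strand) encodes a small ankyrin-repeat protein that is induced by Notch and limits it in turn. Reads numbered 40, 33 and 32 with DMSO and 35, 16 and 32 with fostamatinib. Its log2 CPM was 1.56, 1.13 and 1.13 against 1.37, 0.21 and 1.29. Fostamatinib replicate 2 stood alone below the rest, and the other fostamatinib samples lay inside the DMSO range. The log2 fold change was -0.32 (95% interval -0.85 to 0.22, limma adjusted p = 0.343), and without fostamatinib replicate 2 it was 0.058.

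**Figure D3:**
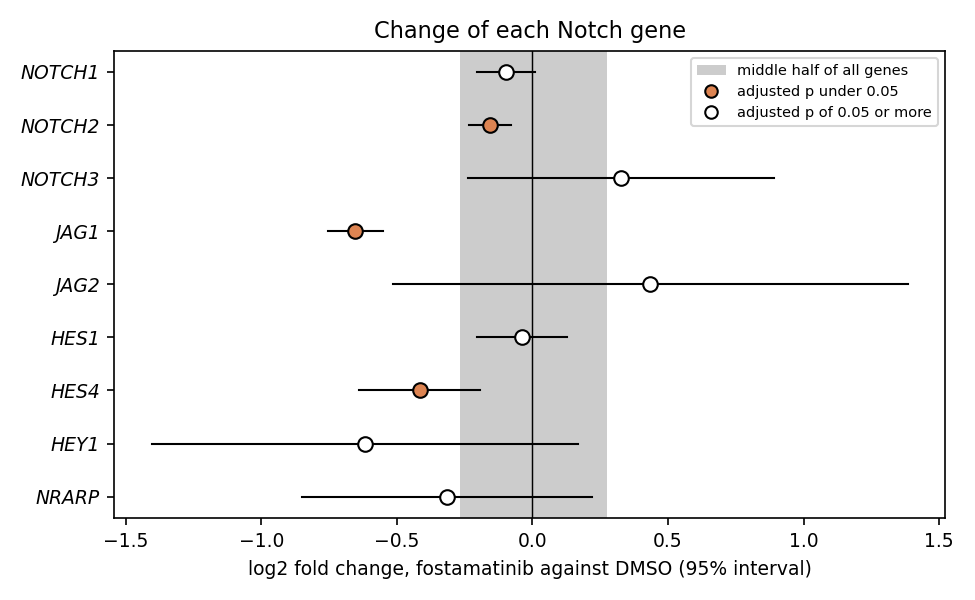
Log2 fold change (fostamatinib against DMSO) with 95% interval for the 9 Notch genes; filled points passed limma's test and the grey band spans the quartiles of all 16305 genes, -0.27 to 0.27. Among the filled points, JAG1 and HES4 fell beyond the band and NOTCH2 fell inside it. Of the open points, HEY1 and NRARP lie below the band and NOTCH3 and JAG2 above it. The widest intervals belong to JAG2, HEY1, NOTCH3 and NRARP, which had means under 50 reads in both groups.

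Of the 7 pairs of related genes tested by their ratio, 0 had groups that did not overlap. The JAG1 to JAG2 log2 ratio went from a mean of 7.76 ± 0.97 (SD, n = 3) to 6.68 ± 0.48 (SD, n = 3), with an exact permutation p = 0.2. NOTCH1 to NOTCH2 had a log2 ratio of -2.34 ± 0.047 (SD, n = 3) and -2.27 ± 0.085 (SD, n = 3), a difference of 0.061 (exact permutation p = 0.4). For NOTCH1 to NOTCH3 the difference was -0.42 (exact permutation p = 0.4), for NOTCH2 to NOTCH3 -0.48 (p = 0.3, exact), for HES1 to HEY1 0.58 (p = 0.3, exact) and for HES1 to NRARP 0.28 (p = 0.6, exact). The adjusted p-values over the 7 pairs were 0.467 to 0.6.

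The rest of the pathway was followed through 74 further genes listed by role, of which 60 had values. Of these, 21 rose, 13 fell and 26 did not pass the test, with a median log2 fold change of 0.089. In all 34 of the 60 were called, beside 47.8% of all genes, and called changes of both signs occurred in 6 of the 9 roles.

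Proteases that process the receptor gave 3 rises and 1 fall among 9 genes. ADAM17, one of the sheddases, fell from a mean of 1190 to 755 reads, a log2 fold change of -0.57 (SE 0.055, limma adjusted p = 7.83e-11). ADAM10, the sheddase held to act first on ligand-bound receptors, had a log2 fold change of -0.0087 (95% interval -0.097 to 0.080, limma adjusted p = 0.887). Among subunits of gamma-secretase, APH1A rose by 0.27 on the log2 scale (limma adjusted p = 1.08e-05), while NCSTN (0.11), APH1B (-0.10) and PSENEN (-0.011) did not pass.

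Fringe enzymes add sugars to the receptor and shift its preference among ligands. MFNG rose from 9, 11 and 7 reads to 21, 31 and 23, a log2 fold change of 1.52 (95% interval 0.86 to 2.18, limma adjusted p = 0.000188), and it fell short of the 50 reads asked of genes singled out. RFNG, at a mean of 259 reads with DMSO, rose by 0.35 (limma adjusted p = 0.00118). LFNG had means of 4.33 and 7.67 reads and a log2 fold change of 0.79 that did not pass (limma adjusted p = 0.206). POFUT1 and POGLUT1, which place the first sugars, had log2 fold changes of -0.052 and -0.086 and did not pass, so 2 of the 5 genes of this role rose and 0 fell.

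Ubiquitin ligases and trafficking proteins gave 4 rises and 1 fall among 12 measured genes of 14 listed. MIB2, a ligase that acts on the ligands, rose from a mean of 321 to 605 reads, a log2 fold change of 1.01 (SE 0.085, limma adjusted p = 2.74e-12). MIB1, the ligase usually required for ligand endocytosis, had a log2 fold change of -0.070 and did not pass (limma adjusted p = 0.249). DTX4 rose by 0.58 (limma adjusted p = 2.16e-06) and DTX3L fell by 0.68 on the log2 scale (limma adjusted p = 2.17e-14), both of the Deltex family. FBXW7, which marks the intracellular domain for breakdown, rose by 0.48 (limma adjusted p = 8.06e-07), and the Notch inhibitor NUMB rose by 0.15 (limma adjusted p = 0.00928).

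Among the 9 genes of the nuclear activator complex 3 rose and 3 fell. RBPJ, the DNA-binding core, fell by 0.25 on the log2 scale, from a mean of 1080 to 856 reads (SE 0.053, limma adjusted p = 0.000210). MAML2 fell by 0.32 (limma adjusted p = 0.00333), while MAML1 (0.11) and MAML3 (0.24) did not pass. The acetyltransferase KAT2B rose by 0.62 (limma adjusted p = 2.94e-06), and EP300 and CREBBP rose by 0.20 and 0.17. KAT2A fell by 0.24. Of the 9 measured genes for repressors of RBPJ, 4 rose and 2 fell, with the highest log2 fold change at 0.33 for CIR1.

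**Figure D4:**
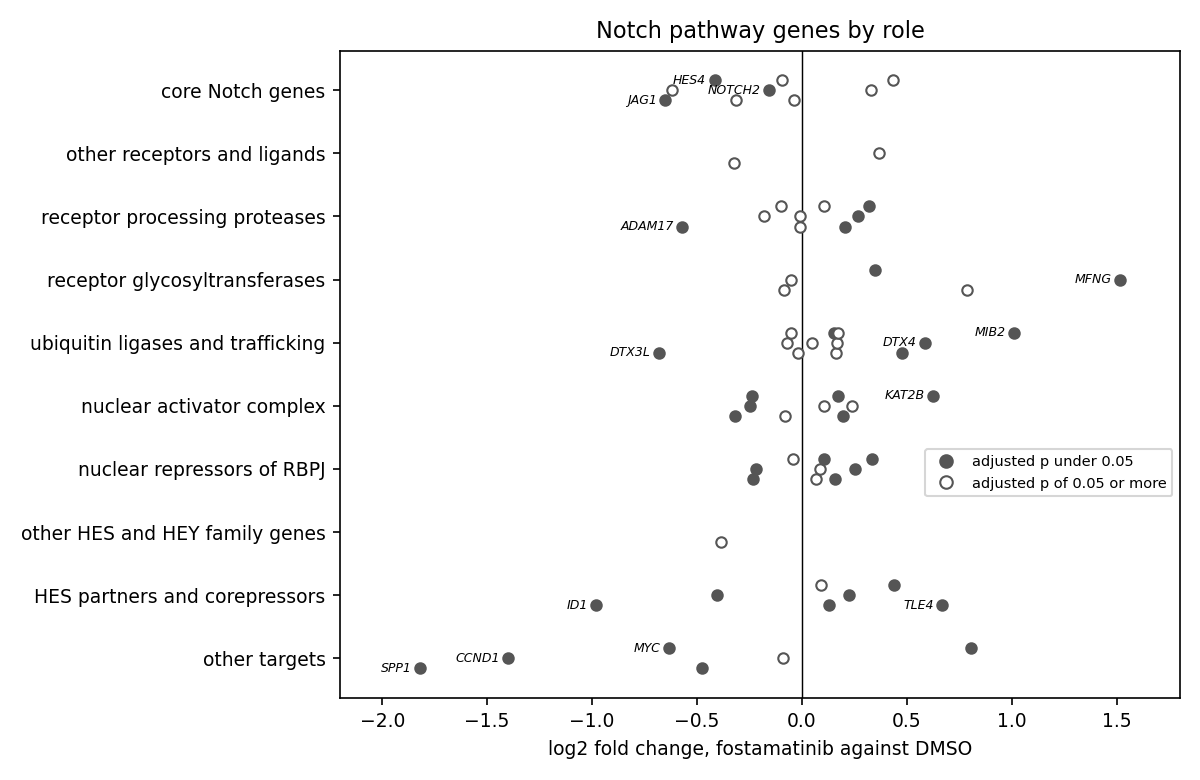
Log2 fold change (fostamatinib against DMSO) of the 9 core Notch genes and of 60 other pathway genes by role; filled points had a limma adjusted p under 0.05, and points are shifted vertically only to part them. Filled points lie on both sides of 0 in most roles, from SPP1 at -1.82 to MFNG at 1.52.

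Of the 8 other HES and HEY family genes only HES6 had values, with means of 19.7 and 15.3 reads and a log2 fold change of -0.39 that did not pass (limma adjusted p = 0.372). Of the 5 other receptors and ligands 2 were measured, DLL4 (-0.32) and DLK2 (0.37), and 0 passed. Partners of HES proteins gave 4 rises and 2 falls among 7 measured genes. ID1, which binds helix-loop-helix proteins, fell by 0.98 on the log2 scale (SE 0.045, limma adjusted p = 2.62e-19), whereas ID2 rose by 0.44 and ID3 by 0.22. The Groucho corepressor TLE1 fell by 0.41 and TLE4 rose by 0.67 (limma adjusted p = 2.21e-07).

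Genes listed as further targets, none of which answers to Notch alone, gave 1 rise and 4 falls among 6. Among all genes 23.3% were called higher and 24.5% lower, and this short list was chosen with earlier results of these data known. CCND1, the cyclin of the early cell cycle, fell by 1.40 on the log2 scale (SE 0.047, limma adjusted p = 2.35e-23). SPP1, encoding osteopontin, fell by 1.82 (SE 0.12, limma adjusted p = 9.64e-15), from a mean of 226 to 59.3 reads. MYC fell by 0.64 (limma adjusted p = 2.62e-12) and SOX9, a bile duct transcription factor, fell by 0.47 (limma adjusted p = 1.59e-05). CDKN1A, an inhibitor of the cell cycle, did not pass (-0.091, limma adjusted p = 0.340). SOX9 and SPP1 are also in the bile duct marker list above.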

How the data were processed

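RNA-seq was performed on 3 DMSO and 3 fostamatinib samples of Huh7-R cells. Per the methods of the study, the authors used HISAT on hg19 and then featureCounts, kept genes with at least 5 reads in 2 of 3 samples of a group, and deposited TMM-scaled log2 CPM values, 1 sample per file. Whole reads were recovered from these deposited values (100% within 0.05 of a whole number); the depth was 13303451 to 15272737 reads. One gene listed repeatedly was used once. The strand setting of the counting was not given in the sources used here, the kit was directional, and no gene overlapping a Notch gene had values.

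The deposited log2 CPM of 16305 genes went into limma 3.58.1 under R 4.3.3 (lmFit, eBayes with a mean-variance trend, treatment as the only term), as planned from the methods of the study, with Benjamini-Hochberg adjustment. The code was tested on simulated data. Ratios within samples were compared by two-sided exact permutation tests; of 8 planned pairs, the 1 with DLL1 was not analysed. Levels per length used GENCODE version 44 mapped to GRCh37, and promoter letters came from RefSeq. Tables were made with Python 3.11.15.

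The Notch genes and the lists were chosen with earlier results of these data known. Named were all 10 core genes, and other pathway genes with an adjusted p under 0.05, a log2 change of 0.5 or more and on average 50 reads or more in the higher group, plus genes that a role needs for its account; the few further genes were named after their values were seen. A few genes covered by it are not reported here. Alternatives were limma-voom, no trend, RLE factors, library size alone, 2 reads added, 2 stricter filters, a replicate block, each sample left out, a threshold of 1 expected false positive, and the longest transcript as length.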

Additional observations from a re-analysis of the deposited data

How the results depend on the processing

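JAG1 kept its fall and its call in all 15 alternatives (-0.68 to -0.62). NOTCH2 (-0.19 to -0.13) lost its call at the threshold of 1 expected false positive only, and HES4 lost it in 3 alternatives. That threshold, which admits fewer genes by construction, left 4136 genes and 1 Notch gene lower (JAG1). The sign was not stable for 3 genes that were not called: when each sample was left out, JAG2 ranged from -0.069 to 0.79, HES1 from -0.12 to 0.014 and NRARP from -0.52 to 0.058. NOTCH3 ranged from 0.011 to 0.62 and HEY1 from -0.83 to -0.41, with no change of sign. Leaving out samples gave 2 to 3 Notch genes lower and 0 higher. With the replicate number as a replicate block, 7977 genes were called, 3 Notch genes fell and 0 rose, and 23 and 13 other pathway genes rose and fell. Same-numbered samples did not deviate together (correlations 0.0278, -0.0192 and 0.0132 for the 3 numbers). This cannot show whether they were cultured or prepared together. Asking for 10 reads in each sample left out JAG2 and HEY1. Depth limits NOTCH3, JAG2, HEY1 and NRARP, which had means under 50 reads in both groups. On the longest transcript the DMSO levels per length were higher for NOTCH1 (7.16), NOTCH2 (31.2), JAG1 (18.7), HES1 (14.9) and HEY1 (0.24) by construction of the length.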
